A study of Mus musculus with 21 samples.

Results

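The interferon response and antigen presentation genes are a set of 39 genes among the 21872 gene symbols that each of the 2 count tables holds. All 39 symbols were found in both tables. The members were chosen with results of these data in view: Rnf213 and Ch25h were selected on their small p-values at embryonic day 18.5 (E18.5), so every E18.5 value below is a description, with no test.

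RNA was sequenced from mouse brain of animals labelled as given plain water, the controls, or trientine (TETA), a copper-chelating drug whose samples are labelled copper-deficient. There were 6 control and 6 TETA libraries at E18.5, and 5 control and 4 TETA libraries at 7 weeks after birth. The protocol names prefrontal cortex of males for the 7-week samples, while region and sex at E18.5 are not stated, nor are strain, dose, route or the time of treatment. No label says that replicates were separate animals, so p-values measure only the spread between these samples.

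Type I interferons are secreted proteins that signal through a receptor and JAK kinases to a complex that holds STAT2 and IRF9, which binds a DNA element called the interferon-stimulated response element and switches on many antiviral genes. Cytosolic sensors of viral RNA start the response, IRF7 amplifies it and USP18 dampens it. In healthy brain the pathway runs at a low basal level, and it also raises the proteins that load peptides onto MHC class I for display to T cells.

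The DNA before the start sites was examined for that element. Its core was searched as GAAANNGAAA on both strands, overlapping matches allowed, in the 250 bases before each start in RefSeq (build GRCm38.p6). Of the 34 members with a sequence, 10 held a match (29.4%), against 936 of 27025 genes (3.46%). The 10 were Stat2, Isg15, Trim30a, Ifit1, Ifit3, Rsad2, Bst2, Gbp3, Gbp7 and B2m. The list was chosen as interferon response genes, so its higher share is a description. Whether a match goes with varying together was not tested. Of members with a high mean correlation with the others at E18.5, Irf7 (0.46) and Oasl2 (0.45) held none and B2m (0.43) held 1. Stat2, with the lowest (-0.36), also held 1. Below are the last 160 bases before the start, read 5′ to 3′ on the gene's strand with matches in capitals, for 5 of the 10 members with a match. Isg15 lies at chr4:156200819-156200978 (minus strand), Ifit1 at chr19:34640729-34640888 (plus), Ifit3 at chr19:34583369-34583528 (plus), Bst2 at chr8:71537473-71537632 (minus) and B2m at chr2:122147527-122147686 (plus).
Isg15: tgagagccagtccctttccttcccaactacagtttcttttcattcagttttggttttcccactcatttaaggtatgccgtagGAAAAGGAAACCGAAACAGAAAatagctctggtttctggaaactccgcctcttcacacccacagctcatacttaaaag
Ifit1: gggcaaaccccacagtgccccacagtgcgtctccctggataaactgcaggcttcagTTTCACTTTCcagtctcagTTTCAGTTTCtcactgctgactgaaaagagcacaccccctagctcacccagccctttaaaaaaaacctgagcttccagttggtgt
Ifit3: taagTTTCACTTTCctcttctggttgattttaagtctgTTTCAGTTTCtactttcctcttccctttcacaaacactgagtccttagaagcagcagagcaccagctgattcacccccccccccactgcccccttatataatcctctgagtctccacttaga
Bst2: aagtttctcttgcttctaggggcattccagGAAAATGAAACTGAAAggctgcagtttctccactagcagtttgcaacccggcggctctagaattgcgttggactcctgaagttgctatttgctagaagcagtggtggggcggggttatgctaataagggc
B2m: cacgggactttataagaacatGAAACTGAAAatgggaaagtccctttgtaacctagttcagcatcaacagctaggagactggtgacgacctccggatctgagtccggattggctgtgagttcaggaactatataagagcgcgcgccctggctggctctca
The same stretch is given for Rnf213 at chr11:119389939-119390098 (plus strand) and Ch25h at chr19:34475149-34475308 (minus), the genes that led to the choice of the list. Neither held a match in 250 bases, which says only that these letters are not in this window.
Rnf213: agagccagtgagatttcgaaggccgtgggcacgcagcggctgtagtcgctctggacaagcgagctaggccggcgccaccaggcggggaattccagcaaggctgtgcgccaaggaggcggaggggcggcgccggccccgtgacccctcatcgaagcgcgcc
Ch25h: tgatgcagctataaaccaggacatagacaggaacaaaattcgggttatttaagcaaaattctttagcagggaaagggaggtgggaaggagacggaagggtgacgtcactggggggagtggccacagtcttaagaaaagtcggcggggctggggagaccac

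Several members are neighbours in the genome (GENCODE vM21, build GRCm38). Ifit2, Ifit3 and Ifit1 lie in 1 cluster on chromosome 19, with Ch25h 75530 bases from Ifit2. Psmb9 and Tap1 overlap by 212 bases on opposite strands of chromosome 17, where Psmb8, H2-K1 and H2-D1 also lie. Parp9 and Dtx3l overlap by 682 bases on opposite strands of chromosome 16. The strand setting of the counting is not given in the sources used here, and neither is the handling of reads shared by near-identical copies, such as Ifit3 and Ifit3b or the H2 genes, so these members are uncertain; Rnf213 also overlaps a long noncoding gene on the opposite strand.

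The E18.5 libraries held between 14678265 and 24308555 counts each, and those of 7 weeks between 17838051 and 24035857. In the E18.5 table, 1940 genes were at 0 in control replicate 1-1 and multiples of 11 in every other library; these were divided by 11, which touched the members Ch25h and Zbp1. The summed level of 4 Y-linked genes was at most 0.0623 CPM (counts scaled to a fixed library size) in control replicates 2-1 and 3-2 and TETA replicates 2-2, 3-1 and 3-2 at E18.5, and at least 174 CPM in the other 7, so the E18.5 groups did not have the same mix. At 7 weeks the 13 markers of striatal projection neurons were all lower in TETA past an adjusted p of 0.05 (edgeR quasi-likelihood test), with sums of 1005 to 1243 CPM in controls and 406 to 560 in TETA libraries. Whether the dissected region differed between the groups at 7 weeks is not stated and cannot be told apart from the treatment, which holds for every TETA value at this age. In such bulk samples, fewer cells of a type and less RNA per cell cannot be told apart.

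At E18.5, 33 of the 39 members passed the filter on low counts, and 30 of these were higher in TETA, against 48.2% of the 13794 genes tested. Their median log2 fold change was 0.28, against -0.00 over all genes. The 3 lower members were Cmpk2, Samd9l and Gbp7. Samd9l ran from -0.11 to 0.084 when 1 library was left out, above 0 without control replicate 2-1 or TETA replicate 1-1. Gbp7 ran from -0.13 to 0.086, highest without control replicate 1-2, so these 2 have no settled direction. Cmpk2 ran from -0.077 to -0.003. The 30 higher members also include some near 0, such as Ifit2 (0.007, SE 0.08), Irf9 (0.02, SE 0.07) and Ifi35 (0.04, SE 0.28). Ifit2 was -0.001 without TETA replicate 2-2. No member had control and TETA libraries that did not overlap; 0.312% of all genes did. No gene of any kind passed an adjusted p of 0.05 in edgeR, with 660 under an unadjusted 0.05, and DESeq2 passed 10. The members not tested were Zbp1, Ifit1, Ifit3, Ch25h, Psmb8 and Psmb9; without the filter, 36 of 39 were higher. No tested member passed the filter through TETA libraries alone, and 1 did so with more TETA than control libraries.

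The excess was not spread evenly over the TETA libraries. TETA replicate 2-2 had the highest level of all 12 libraries for 21 of the 33 members, while it was highest for 7.31% of all genes tested. Averaged over the 33 members, the log2 difference from the control mean was 0.67 in TETA replicate 2-2, 0.43 in 2-1 and 0.35 in 1-1. It was 0.05 in TETA replicate 1-2, -0.04 in 3-1 and 0.02 in 3-2, inside the range of the controls, which ran from -0.25 to 0.18. The labels do not say what the 2-part replicate numbers stand for, so libraries that share the first number may share a source and the number of independent samples may be below 6 a group; with such libraries summed, the median was 0.30. Without TETA replicate 2-2 the median was 0.16, with 25 members higher. Without the 4 libraries numbered 2-1 and 2-2 in both groups, an alternative added after seeing the data, it was 0.10, with 21 higher. Among the 15 members with a mean of at least 50 counts it was 0.08.

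**Figure D1:**
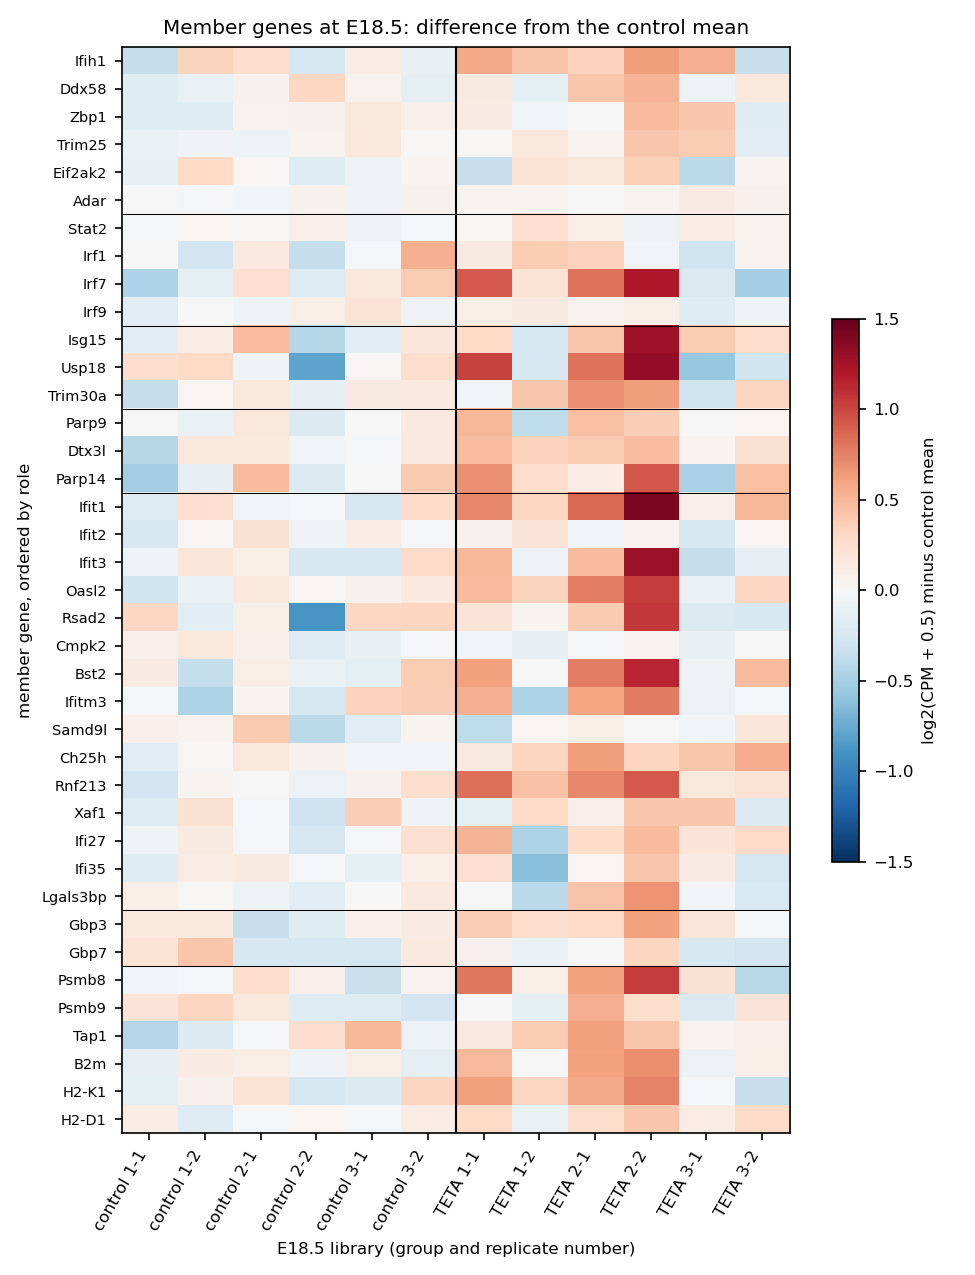
Each cell is the log2(CPM + 0.5) of a member (rows, ordered by role) in an E18.5 library (columns) minus the mean of the 6 control libraries; red is higher and blue lower, and the colour scale ends at 1.5. TETA replicates 1-1, 2-1 and 2-2 are red for many members, with mean differences of 0.35, 0.43 and 0.67 over the 33 tested, while the means of TETA replicates 1-2, 3-1 and 3-2 lie within the range of the controls.

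Other cell types were checked beside this. The summed level of 18 microglia and macrophage markers was 84.7 to 95.7 CPM in the controls, and 99.3, 76.7, 92.6, 99.9, 86.2 and 85.1 CPM in TETA replicates 1-1, 1-2, 2-1, 2-2, 3-1 and 3-2. It was thus highest in 2 of the libraries with high members and lowest in TETA replicate 1-2. The sum of 18 endothelial markers was 334 to 375 CPM in the controls and 362 to 405 CPM in TETA, with TETA replicate 2-1 highest. With the microglia score as a covariate the members' median was 0.16, with the endothelial score 0.22, and with the Y-linked level 0.26. The 11 T and B lymphocyte markers summed to 8.4 to 9.69 CPM in controls and 7.9 to 10.7 CPM in TETA, highest in TETA replicate 2-2; of these markers, Cd3g and Cd8a were at 0 in all 12 libraries.

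Among the sensors, Ifih1, which encodes the double-stranded RNA sensor MDA5, had a lowest, median and highest level of 1.24, 1.74 and 2.31 CPM in controls and 1.26, 2.62 and 2.94 CPM in TETA (log2 fold change 0.45, SE 0.19). The other 5 TETA libraries were above every control library, while TETA replicate 3-2 was among the lowest. Ddx58, encoding the RNA sensor RIG-I, gave 0.19 (SE 0.13) and Trim25, a ubiquitin ligase that acts on RIG-I, 0.16 (SE 0.10). Eif2ak2, the kinase PKR that halts translation on binding double-stranded RNA, gave 0.06 (SE 0.13), and Adar, the RNA-editing enzyme, 0.05 (SE 0.03). Without TETA replicate 2-2, Ddx58 and Trim25 were each 0.09 and Eif2ak2 was -0.04. Zbp1, a sensor of Z-form nucleic acid, had 0 to 3 counts in the control libraries and 0 to 7 in TETA.

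Irf7, the amplifier named above, stood at 0.393, 0.75 and 1.1 CPM in controls (lowest, median, highest), and at 1.83, 0.92, 1.66, 2.33, 0.561 and 0.373 CPM in TETA replicates 1-1, 1-2, 2-1, 2-2, 3-1 and 3-2 (log2 fold change 0.74, SE 0.35; 0.42, SE 0.34 without TETA replicate 2-2; 0.20, SE 0.42 without the libraries numbered 2-1 and 2-2). The 3 TETA libraries 1-1, 2-1 and 2-2 lay above all controls and TETA replicate 3-2 lay below them. Stat2 and Irf9, which encode parts of the complex that binds the element, gave 0.08 (SE 0.05) and 0.02 (SE 0.07). Irf1, an activator induced by interferon gamma, gave 0.10 (SE 0.22).

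Isg15 encodes a ubiquitin-like protein that is attached to other proteins, and its levels in controls were 0.356, 0.64 and 1.1 CPM (lowest, median, highest). In TETA it stood at 0.916, 0.46, 1.05, 2.29, 0.997 and 0.886 CPM in the same order of replicates (log2 fold change 0.74, SE 0.33; 0.32, SE 0.28 without TETA replicate 2-2). Only TETA replicate 2-2 was above every control. Usp18, which removes ISG15 and blocks the receptor, gave 0.91 (SE 0.47), with TETA replicates 1-1, 2-1 and 2-2 at 1.55, 1.29 and 2.04 CPM against at most 0.746 CPM in controls and at most 0.358 CPM in the other 3. Its value turned to -0.17 (SE 0.48) without the libraries numbered 2-1 and 2-2. Trim30a, a TRIM protein of the innate response, gave 0.49 (SE 0.24).

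Parp9 and Parp14 encode ADP-ribosyltransferases of the response and Dtx3l the ubiquitin ligase that partners PARP9. They gave 0.22 (SE 0.16), 0.48 (SE 0.26) and 0.37 (SE 0.13), and Parp14 gave 0.28 (SE 0.26) without TETA replicate 2-2. Dtx3l was at 1.44, 2.24 and 2.44 CPM in controls and 2.18, 2.85 and 3.1 CPM in TETA (lowest, median, highest).

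Rnf213, a very large ubiquitin ligase with antimicrobial activity, was at 6.35, 8.08, 7.84, 7.33, 8.22 and 9.5 CPM in control replicates 1-1 to 3-2. It was at 14.3, 10.8, 13.3, 15.2, 8.84 and 9.19 CPM in TETA replicates 1-1 to 3-2. TETA replicates 1-1, 1-2, 2-1 and 2-2 were above every control, and 3-1 and 3-2 were within the controls' range. The log2 fold change was 0.60 (SE 0.12), and 0.41 (SE 0.14) without the libraries numbered 2-1 and 2-2.

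Ch25h encodes cholesterol 25-hydroxylase, which makes an antiviral oxysterol. Its deposited counts at E18.5 were 0, 11, 33, 22, 11 and 11 in controls and 22, 44, 66, 55, 44 and 77 in TETA replicates 1-1 to 3-2. Divided by 11 they were 0 to 3 counts in controls and 2 to 7 in TETA, which is below the filter, and the groups overlap between 2 and 3 counts. On the divided counts without a filter the log2 fold change was 1.76 (SE 0.50), and on the counts as deposited it was 1.89 (SE 0.41).

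Of the other effectors, Oasl2 (an OAS-like protein) gave 0.63 (SE 0.19) and Bst2 (tetherin, which holds budding viruses at the cell surface) 0.71 (SE 0.23). Oasl2 was at 1.24, 1.49, 1.88, 1.69, 1.73 and 1.86 CPM in control replicates 1-1 to 3-2 and 2.46, 2.2, 3.14, 3.92, 1.49 and 2.15 CPM in TETA. Bst2 was at 1.44, 0.882, 1.4, 1.16, 1.11 and 1.81 CPM in controls and 2.23, 1.28, 2.52, 3.43, 1.18 and 1.96 CPM in TETA. In both, TETA replicate 3-1 was within the controls' range. Without the libraries numbered 2-1 and 2-2, Oasl2 was 0.37 (SE 0.20) and Bst2 0.33 (SE 0.26). Ifit1 and Ifit3, members of a family that binds viral RNA, were too low for the filter. Ifit1 was at 0.0655, 0.271, 0.131, 0.133, 0.0444 and 0.286 CPM in control replicates 1-1 to 3-2 and 0.572, 0.307, 0.676, 1.23, 0.187 and 0.42 CPM in TETA. On this scale 5 of 6 TETA libraries, 1-2 and 3-2 among them, were above every control. In counts Ifit1 had 1, 4, 3, 3, 1 and 6 in controls and 10, 6, 11, 30, 3 and 9 in TETA. TETA replicate 1-2 thus had the same 6 counts as control replicate 3-2. Ifit3 was at 0.178 to 0.477 CPM in controls and 0.63, 0.256, 0.615, 1.47, 0.125 and 0.233 CPM in TETA, with 1-1, 2-1 and 2-2 above every control. Its counts were as low, with 10 in both TETA replicate 2-1 and control replicate 3-2. Their log2 fold changes without the filter were 1.91 (SE 0.46) and 0.94 (SE 0.45). Ifit2, their neighbour, was at 13.9 to 19.5 CPM in controls and 14 to 19.1 CPM in TETA (0.01, SE 0.08).

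Rsad2 (viperin) gave 0.44 (SE 0.38) and turned to -0.01 (SE 0.36) without TETA replicate 2-2, whose 1.76 CPM was the highest of the 12. Cmpk2, a mitochondrial nucleotide kinase that lies 12752 bases from it, was at 20.2, 21.5, 20.1, 16.7, 17.7 and 18.7 CPM in controls and 18.5, 17.5, 18.7, 19.8, 17.6 and 19 CPM in TETA (-0.04, SE 0.06). Samd9l, an antiviral and growth-restraining protein, was at 5.7, 5.63, 7.23, 3.96, 4.75 and 5.58 CPM in controls and 4.01, 5.52, 5.78, 5.39, 5.23 and 6.2 CPM in TETA (-0.02, SE 0.12). The remaining effectors, Ifitm3, Xaf1, Ifi27, Ifi35 and Lgals3bp, gave between 0.04 (Ifi35) and 0.31 (Ifi27). Without TETA replicate 2-2, Ifi35 turned to -0.17 and Lgals3bp to -0.05, Ifitm3 was 0.11 instead of 0.28 and Xaf1 0.12 instead of 0.24. Without the libraries numbered 2-1 and 2-2, only Ifi27 of these effectors stayed above 0 (0.11), with Ifitm3 at -0.13 and Xaf1 at -0.04. The guanylate-binding GTPases Gbp3 and Gbp7 gave 0.39 (SE 0.16) and -0.01 (SE 0.16); Gbp7 was at 3.14, 3.73, 2.19, 2.13, 2.13 and 3.01 CPM in controls and 2.81, 2.45, 2.64, 3.47, 2.18 and 2.1 CPM in TETA. Gbp3 was 0.09 (SE 0.18) without the libraries numbered 2-1 and 2-2. In Cmpk2, Samd9l and Gbp7 every TETA library lay within the controls' range, except TETA replicate 3-2 of Gbp7, just below it.

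For antigen presentation, B2m, the light chain of MHC class I, was at 11.6, 12.9 and 14 CPM in controls (lowest, median, highest). In TETA replicates 1-1 to 3-2 it was at 18, 12.8, 19.6, 21, 12 and 13.7 CPM (log2 fold change 0.34, SE 0.11). The 3 libraries above all controls were 1-1, 2-1 and 2-2. The heavy chains H2-K1 and H2-D1 gave 0.38 (SE 0.17) and 0.22 (SE 0.07), and Tap1, a subunit of the peptide transporter, 0.29 (SE 0.17). Without the libraries numbered 2-1 and 2-2, B2m was 0.15 (SE 0.11), H2-K1 0.16 (SE 0.19), H2-D1 0.16 (SE 0.09) and Tap1 0.19 (SE 0.22). The immunoproteasome subunits Psmb8 and Psmb9 gave 0.92 (SE 0.37) and 0.41 (SE 0.42) without the filter.

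**Figure D2:**
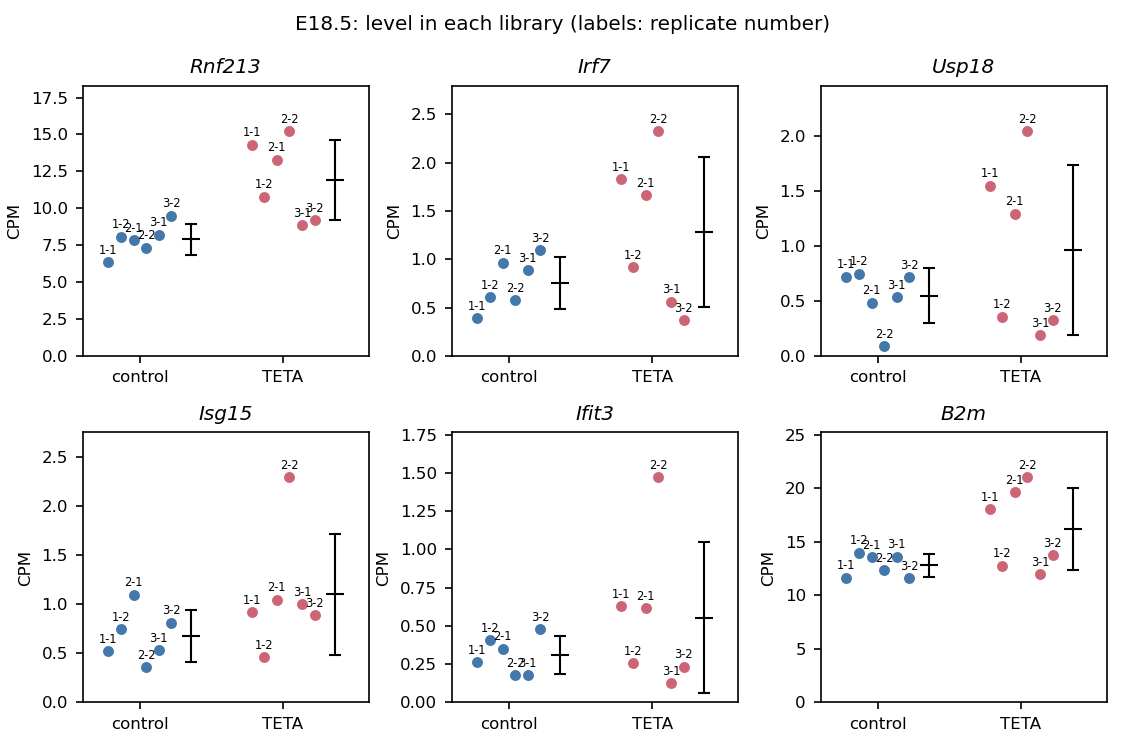
CPM (y axis, from 0) of 6 members in each E18.5 library, with replicate numbers beside the points; the bar beside each group is the mean and 1 SD of 6 libraries. In Rnf213, Irf7, Usp18 and B2m the TETA libraries above all controls include 1-1, 2-1 and 2-2, and in Isg15 only 2-2.

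Many members, but not all, varied together across the libraries of an age, with both groups pooled. The spread among the TETA libraries at E18.5 thus enters these values. With group means removed, the mean Pearson correlation over 528 pairs of members at E18.5 was 0.257 over 12 libraries, against 0.001 for all pairs of genes, and 0.174 without TETA replicate 2-2. Of the pairs, 76.5% were above 0. Rnf213 was most like Irf7 (r 0.95), while the mean correlation with the other members was negative for Stat2 (-0.364, and -0.185 without TETA replicate 2-2) and Adar (-0.275, and -0.265 without it). At 7 weeks the mean over 666 pairs was 0.230 over 9 libraries, and 0.146 without control replicate 5, with 75.8% of pairs above 0. The members with the lowest means there were Irf1 (-0.214) and Stat2 (-0.130). Pairs share libraries and depth, so these are descriptions.

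At 7 weeks, 37 members were tested, and 1 passed an adjusted p of 0.05 in the edgeR quasi-likelihood test, against 9.96% of 14240 genes. That member was Ifit3, at 9.28, 9.35, 8.11, 7.3 and 10.6 CPM in control replicates 1 to 5 and 5.76, 6.86, 8.43 and 6.59 CPM in TETA replicates 1 to 4. The groups overlapped, since TETA replicate 3 lay above 2 controls. The log2 fold change was -0.37 (SE 0.12, edgeR adjusted p 0.0467), lower in TETA. The call was lost without TMM factors, without any 1 of 6 libraries (control replicates 1, 2 and 5, TETA replicates 1, 2 and 4), with the replicate number as a block and with the microglia score as a covariate. The fit with the block also left out control replicate 5, so it is not a separate result from leaving out that library. The value itself stayed between -0.49 and -0.29 when a library was left out. It was -0.31 (SE 0.12) with the block and -0.29 (SE 0.13) with the microglia score. The near-identical copy Ifit3b did not pass. Its levels overlapped, at 4.97, 5.83, 4.35, 4.19 and 6.52 CPM in controls and 4.64, 5.41, 4.82 and 4.14 CPM in TETA.

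Over the 37 members, 27 were lower and 10 higher in TETA, where 49.9% of all genes were lower, and the median was -0.05. Only Ifih1 and Ifitm3 had groups that did not overlap, as 11.2% of all genes did. Ifih1 was at 5.84, 6.62, 5.85, 5.93 and 7.38 CPM in controls and 5.45, 4.79, 5.16 and 5.34 CPM in TETA (-0.29, SE 0.10, edgeR adjusted p 0.089). Ifitm3, a membrane protein that blocks virus entry, was at 5.97, 7.38, 6.55, 5.82 and 6.01 CPM in controls and 5.76, 4.91, 5.42 and 5.34 CPM in TETA (-0.24, SE 0.10, edgeR adjusted p 0.151). Control replicates 5 and 2 were the highest of the 9 libraries for 17 and 10 of the 37 members, and for 11.5% and 11.6% of all genes.

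Isg15 was at 1.92, 1.68, 2.09, 0.919 and 1.67 CPM in control replicates 1 to 5 and 1.07, 1, 0.989 and 1.15 CPM in TETA (-0.65, SE 0.22, edgeR adjusted p 0.0698). Control replicate 4 alone was below the TETA libraries. Irf9 was the higher member with the smallest p, at 6.71, 8.64, 6.87, 7.71 and 9.87 CPM in controls and 8.5, 9.48, 12.3 and 10.4 CPM in TETA (0.35, SE 0.12, edgeR adjusted p 0.0664). With the replicate block, in a fit that also left out control replicate 5, Irf9 passed (0.44, edgeR adjusted p 0.0245). Irf9 shares its locus with Rnf31 on the same strand. Stat2 gave 0.10 (SE 0.06) from 22.8, 20.9, 23.3, 23.3 and 23 CPM in controls and 22.4, 24.1, 26.3 and 24.6 CPM in TETA, and 0.064 without TETA replicate 3. Ifi35, a protein of the interferon response, gave 0.23 (SE 0.18) from 1.83, 2.1, 1.45, 1.58 and 1.63 CPM and 1.93, 1.56, 2.67 and 1.88 CPM, and 0.058 without TETA replicate 3. At 7 weeks the summed striatal, endothelial and meningeal fibroblast markers each separate the groups completely, so fits with those scores as covariates cannot tell the score from the treatment, and nothing is read from them. The microglia sums overlap between the groups, and with that score Irf9 passed (0.50, edgeR adjusted p 0.0152), as did Isg15 (-0.81, edgeR adjusted p 0.0419).

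By role, 4 of 5 sensors, 2 of 4 transcription factors, 2 of 3 genes of the ISG15 group, all 3 ADP-ribosylation genes, 10 of 14 effectors, both guanylate-binding genes and 4 of 6 antigen presentation genes were lower in TETA at 7 weeks. Oasl2 was at 2.83, 3.82, 2.63, 1.58 and 3.82 CPM in controls and 2.62, 2.45, 2.02 and 1.97 CPM in TETA (-0.39, SE 0.21, edgeR adjusted p 0.26). Bst2 was at 2.92, 3.86, 2.15, 2.86 and 3.69 CPM in controls and 1.76, 2.01, 2.79 and 2.65 CPM in TETA (-0.44, SE 0.18, edgeR adjusted p 0.146). Both genes, among the highest at E18.5 by log2 fold change, overlapped between groups here. Irf7 gave -0.20 (SE 0.17), Ifit1 -0.28 (SE 0.21) and Usp18 0.23 (SE 0.36), with none of the 3 past the threshold.

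Rnf213 was at 15.7, 16.7, 13, 14.2 and 21 CPM in controls and 16.5, 15.8, 15.5 and 15.6 CPM in TETA (-0.03, SE 0.10, edgeR adjusted p 0.882). The TETA libraries lay within the controls' range. Ch25h had 8, 7, 2, 16 and 16 counts in controls and 10, 5, 20 and 9 in TETA, too few for the filter. Of the antigen presentation members, B2m gave 0.03 (SE 0.05), H2-K1 0.06 (SE 0.07) and H2-D1 -0.01 (SE 0.05) at this age. The less abundant Psmb8 gave -0.17 (SE 0.19), Psmb9 -0.01 (SE 0.28) and Tap1 -0.04 (SE 0.23).

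Beside these values, 11 of 12 meningeal fibroblast markers were lower in TETA, 5 past the threshold in edgeR, with sums of 272 to 297 CPM in controls and 224 to 271 CPM in TETA. Of 18 endothelial markers 2 were higher past the threshold, with sums of 456 to 516 CPM and 522 to 573 CPM. The 18 microglia markers had sums of 520 to 580 CPM and 526 to 571 CPM, with none past the threshold. The T and B lymphocyte markers summed to 10.9 to 13.3 CPM in controls and 5.16 to 8.03 CPM in TETA, without overlap; of the 3 tested, Cd4 was lower past the threshold in edgeR (-1.87, SE 0.21), while Ptprc gave -0.05 (SE 0.14) and Lck -0.10 (SE 0.20). The 10 astrocyte markers summed to 5754 to 6610 CPM in controls and 5290 to 5639 CPM in TETA, also without overlap, with 3 lower past the threshold in edgeR. Control replicate 4 stood apart in choroid plexus markers, at 62.6 CPM against 4.28 to 7.53 CPM in the other 8 libraries. The part of these cell types in the members' values was not tested beyond the microglia score given above.

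**Figure D3:**
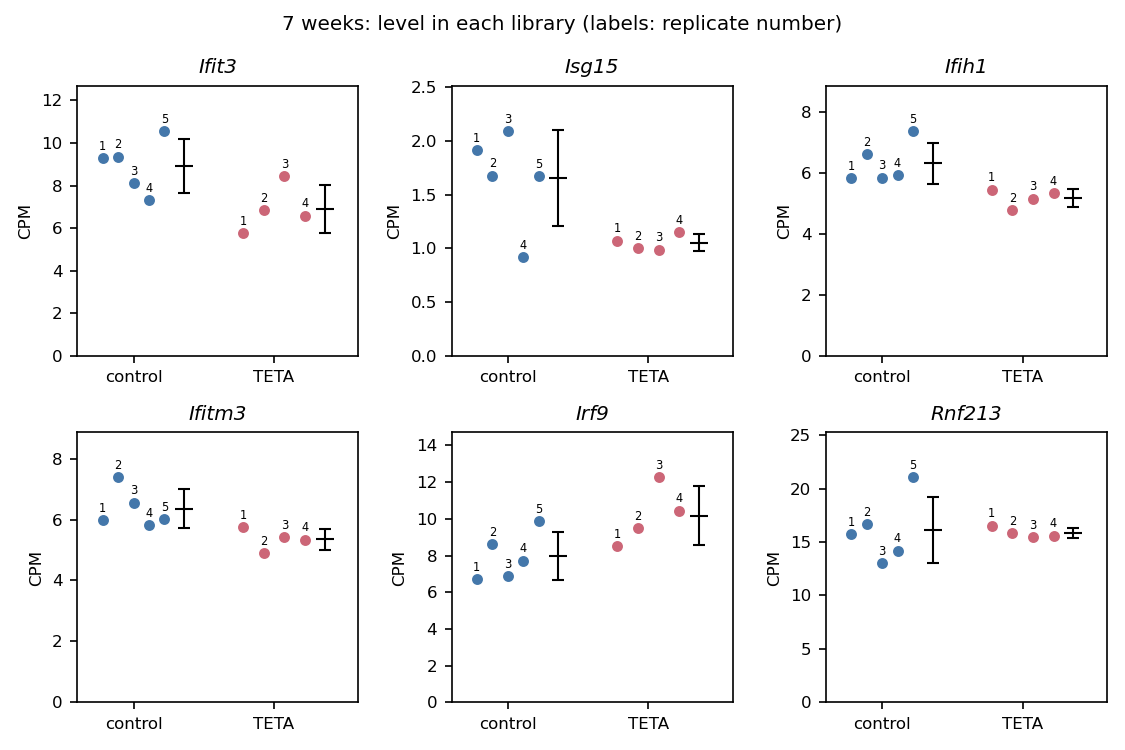
CPM (y axis, from 0) of 6 members in each 7-week library, with replicate numbers beside the points; the bar beside each group is the mean and 1 SD of 5 control or 4 TETA libraries. Ifih1 and Ifitm3 do not overlap between groups, and Rnf213 in TETA, from 15.5 to 16.5 CPM, lies within the controls' range.

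The 2 ages can be set side by side for the 33 members tested at both. Of these, 21 were higher in TETA at E18.5 and lower at 7 weeks, 9 were higher at both, 2 were lower at both and 1 was lower and then higher. Whether the response differed between ages was not tested.

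**Figure D4:**
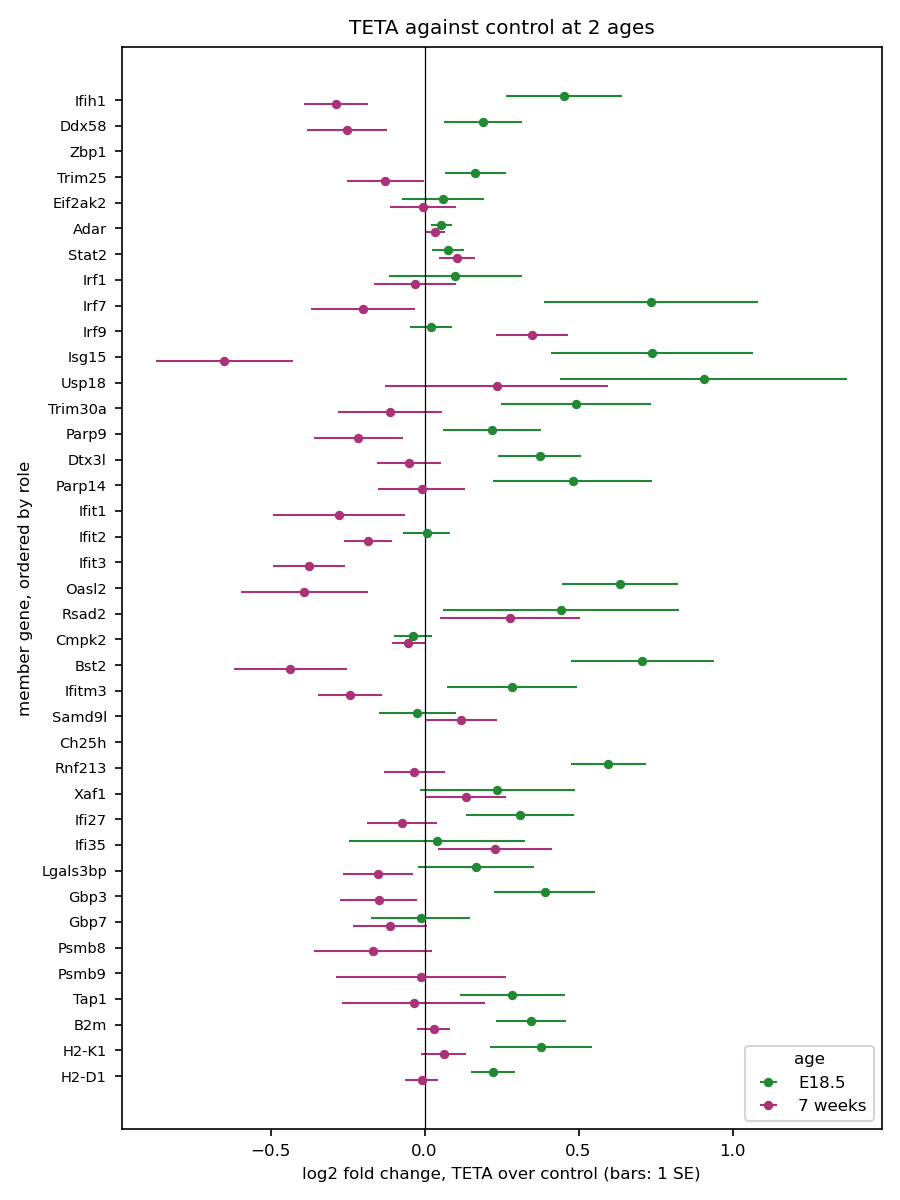
Log2 fold change of TETA over control (x axis, bars of 1 SE) for each member tested, ordered by role, at E18.5 (green) and 7 weeks (purple). At E18.5, 30 of 33 lie to the right of 0, and at 7 weeks 27 of 37 lie to the left.

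In control libraries, 36 members were compared between ages, and 34 passed an adjusted p of 0.05 in edgeR, near the 89.5% of all genes. The direction was uneven: 31 were higher at 7 weeks and 3 lower, whereas 6330 genes were higher and 6541 lower. The members' median log2 fold change was 1.37, against -0.02 for all genes. Without TMM factors the median of all genes moved to -0.17, and 32 members passed. Of the 36, Ifit1, Ifit3 and Psmb8 passed the filter through the 7-week libraries and had to differ, so the counts are given as a description. Age cannot be told apart from the table, nor from region and sex, which are not stated at E18.5.

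Ifit3 was 4.997 higher on the log2 scale (SE 0.18), from a mean of 0.309 CPM (SD 0.124, n = 6) to 8.92 CPM (SD 1.25, n = 5), each scaled within its age. Ifit1 was 4.54 higher (SE 0.33), and as both entered the comparison through the 7-week libraries these values are descriptions. Of members that passed the filter at both ages, Ifi27, an interferon-inducible membrane protein, was 3.26 higher (SE 0.14) and Lgals3bp, a secreted glycoprotein, 2.75 (SE 0.13). The 3 lower members were Irf9 (-0.91, SE 0.09), Stat2 (-0.43, SE 0.05) and Ifit2 (-0.22, SE 0.08). Tap1 and Samd9l did not pass.

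Per kilobase of exon, Adar had the highest level in E18.5 controls, at 19.7 CPM per kb, followed by B2m at 14.9 and H2-D1 at 9.25. In 7-week controls B2m led at 75.1 CPM per kb, before Adar at 27.7 and H2-D1 at 13.9. All 18 microglia markers were also higher at 7 weeks past the threshold (median log2 2.84); their part in the members' difference was not tested.

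**Figure D5:**
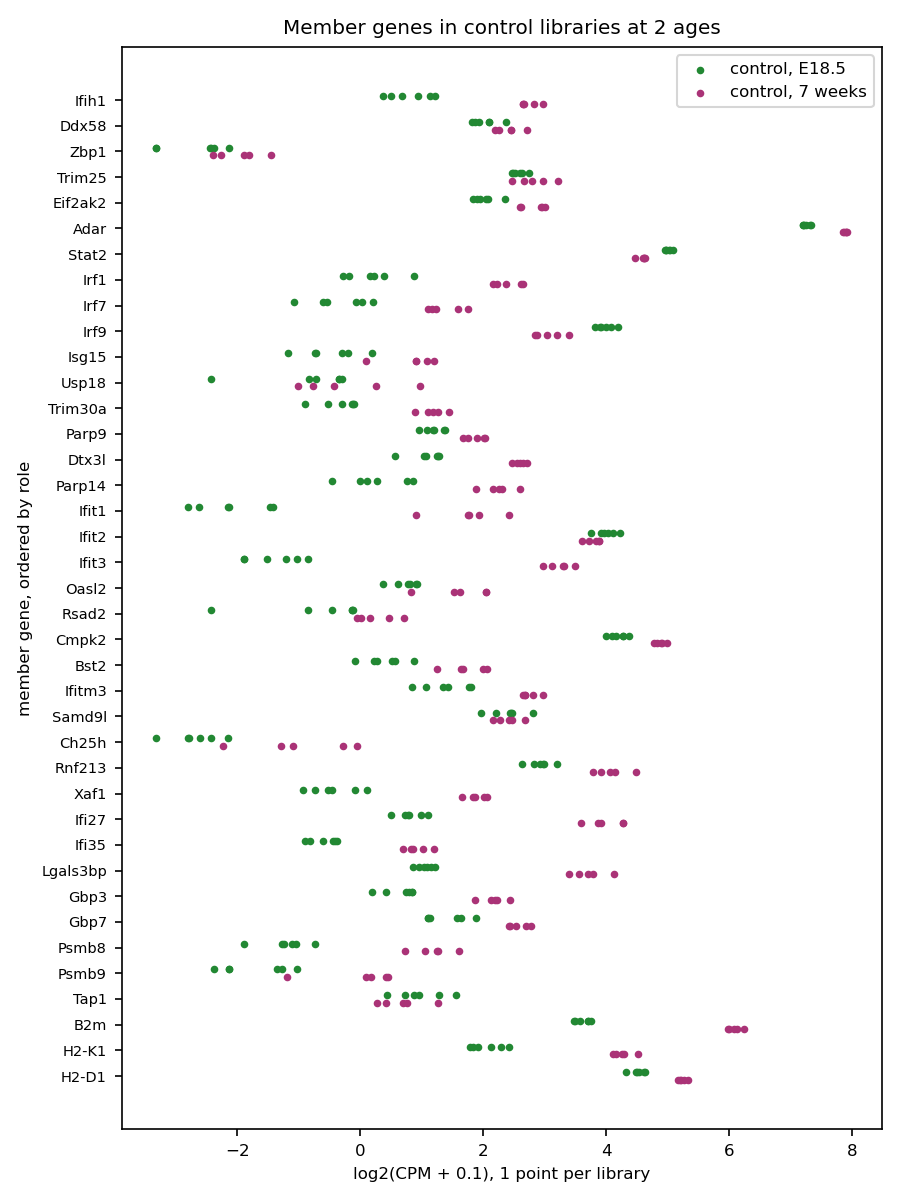
Level of each member in every control library on a log scale, log2(CPM + 0.1), at E18.5 (green) and 7 weeks (purple), ordered by role. Most members are higher at 7 weeks, with Ifit3 and Ifit1 farthest apart, while Irf9, Stat2 and Ifit2 are lower.

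The wider pathway was described from 150 other genes. The 8 interferon genes listed had no counts at E18.5, which allows at most 0.0128 CPM over all libraries, and only 1 count, of Ifne, at 7 weeks. At E18.5, 63 of 95 pathway genes tested were higher in TETA, against 48.2% of all genes, with a median of 0.03. Without TETA replicate 2-2, an alternative added after seeing the data, 59 of 95 were higher and the median was 0.03. The 3 with the smallest p were Parp12 (0.32, SE 0.11), the MHC gene H2-Q4 (0.52, SE 0.19) and the immunity-related GTPase Irgm1 (0.47, SE 0.17).

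At 7 weeks, 8 of 122 pathway genes passed in edgeR, against 9.96% of all genes. Those higher included the phosphatases Ptpn1 (0.20, SE 0.04) and Ptpn2 (0.23, SE 0.06), which restrain JAK and STAT signalling, the transcription factor Irf3 (0.22, SE 0.06), the coactivator Helz2 (0.49, SE 0.10) and the RNA-processing enzyme Pnpt1 (0.26, SE 0.06). Lower were Ifitm1 (-0.60, SE 0.16), a relative of Ifitm3, and the GTPase Iigp1 (-0.84, SE 0.25). Ptpn1 was at 54.8, 52.5, 53.4, 50.8 and 52.6 CPM in controls and 57.8, 60.3, 62.8 and 61.6 CPM in TETA, with no overlap. Ifitm1 was at 2.88, 2.77, 2.79, 2.3 and 2.88 CPM in controls and 1.68, 1.51, 1.98 and 2.02 CPM in TETA, again with no overlap.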

How the data were processed

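RNA-seq libraries were made with a stranded poly(A) kit, per the labels' protocols. What the authors deposited is raw read counts by gene symbol, in 1 table for each age, per the file headers; STAR 2.7.1a, featureCounts 2.0.1 and mm10 are named in the submitters' processing notes. No rows lacked a gene name. The members and lists were chosen with earlier results of these data known. E18.5 rows at 0 in control replicate 1-1 were divided by 11.

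Each age was fitted alone in edgeR 4.0.16 (R 4.3.3) with its quasi-likelihood test, TMM factors, filterByExpr with a minimum count of 10 and Benjamini-Hochberg adjustment over all genes, threshold 0.05. Standard errors are the log2 fold change over the root of F. DESeq2 1.42.0 was an alternative. The fit was tested on simulated data. For correlations, 2 was the prior count in log2 CPM. Gene positions came from GENCODE vM21 (GRCm38) and promoters from RefSeq (GRCm38.p6).

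Members could all be named. Values per library were given for Rnf213, Ch25h, members past the threshold at 7 weeks and, at each age, the 3 higher and 3 lower with the smallest p; values of Irf7, Isg15, Usp18, Ifit1, B2m, Ifitm3 and, at 7 weeks, Oasl2 and Bst2 were added after their values were seen. Pathway genes were named where past the threshold at 7 weeks (1 of them is not reported here; values per library of Ptpn1 and Ifitm1 were added after they were seen), and the 3 with the smallest p at E18.5; between ages, the 4 higher and 4 lower members with the largest change past the threshold were named, of which only 3 were lower. Alternatives left out libraries or changed normalization, tool, filter, covariates and blocks.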

Additional observations from a re-analysis of the deposited data

Results flagged for a closer look

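A library far from the rest of its group was looked for in 144 sets of values (1 member in 1 group), with the gap to the nearest library divided by the group's range on the log2 CPM scale. It was found 12 times, where chance gives about 1 in 20, or 7.2. All 12 were low libraries. At E18.5 these were Usp18 and Rsad2 in control replicate 2-2 (ratios 0.749 and 0.684), Dtx3l in control replicate 1-1 (0.66), Ifih1 in TETA replicate 3-2 (0.725) and Ifi27 in TETA replicate 1-2 (0.686). At 7 weeks they were Stat2 in control replicate 2 (0.783), Isg15 in control replicate 4 (0.723) and Psmb9 in control replicate 3 (0.78). In TETA at 7 weeks they were Xaf1 in replicate 2 (0.864), Psmb8 and H2-K1 in replicate 4 (0.888 and 0.836) and Psmb9 in replicate 1 (0.933). Low libraries of Usp18 and Rsad2 are near the bottom of the scale, at 0.0889 CPM.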

How the results depend on the processing

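The count of members past the threshold at 7 weeks, 1, became 0 without TMM factors and with the striatal or the endothelial score as a covariate, and 2 with the microglia score (Irf9 and Isg15). Leaving out each library gave 0 to 2. Rnf213 at 7 weeks changed sign to 0.082 without control replicate 5 (-0.099 to 0.082 over libraries left out), to 0.097 with the microglia score and to 0.018 with the meningeal fibroblast score. With the striatal score Irf9 was -0.74 (SE 0.28), Stat2 -0.14 (SE 0.18) and Ifi35 -0.83 (SE 0.54), but the summed striatal, endothelial and meningeal markers each separate the groups completely at 7 weeks, so nothing is read from the fits with these scores. The cause of these shifts was not tested. The E18.5 median kept its sign in all 25 alternatives but ran from 0.076 to 0.35, beside 0.28 in the main fit, so its size depended on these choices. The count of members between ages was 23 to 36 under the other settings and 32 to 35 when a library was left out.

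What the replicate numbers stand for is not stated. Same-numbered control and TETA libraries correlated at -0.28 to 0.28 at E18.5 and -0.07 to -0.03 at 7 weeks. These values cannot show whether a number marks a shared batch or source. The fit with the replicate block at 7 weeks also left out control replicate 5, which has no TETA library of its number. In it 1063 genes and 1 member (Irf9, 0.44) passed in edgeR, Rnf213 was 0.091, and Ifit3 did not pass (-0.31). Without control replicate 5 and with no block, Rnf213 was 0.082, so the block and the missing library cannot be told apart here. With the block at E18.5 no gene passed in edgeR (719 under an unadjusted 0.05; 675 with the first part of the number), and the members' median was 0.29.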
